A study of Mus musculus with 2 samples.

Results

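The fibrillar collagen genes Col1a1, Col1a2, Col3a1, Col5a1, Col5a2, Col5a3 and Col11a1 were followed in single cells of the mouse mitral valve. They were found by symbol among the 32285 counted genes, and all 7 were present. Valve cells came from Fbn1 C1039G/+ mice (3 animals pooled into 1 library) and from wild type mice with the genotype Fbn1 +/+ (WT, 5 animals pooled into 1 library). All mice were C57BL/6J and 1 month old. Fbn1 encodes fibrillin-1, and mice heterozygous for the C1039G substitution are used as a model of Marfan syndrome. With 1 pooled library per genotype there was no replicate, so no p-value is given. Intervals are 95% and cover counting error only, and an effect of genotype cannot be told apart from a difference between the pools, the dissections or the library preparations.

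Fibrillar collagens form the load-bearing fibrils of the leaflet, and each molecule is a triple helix of chains. Type I collagen joins the chains encoded by Col1a1 and Col1a2 and holds more of the Col1a1 chain than of the Col1a2 chain. Type III collagen is built from Col3a1 chains alone and joins type I in the fibrils of distensible tissues. Col5a1, Col5a2 and Col5a3 encode the chains of type V collagen, and Col11a1 encodes a chain of type XI collagen. These minor collagens take part in starting fibril assembly and limiting fibril width, and type XI is best known from cartilage. In the valve the interstitial cell, the fibroblast-like cell within the leaflet, is known as the main source of these proteins.

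Positions are those of GENCODE M21 on GRCm38/mm10. Col1a1 spans chr11:94936224-94953042 on the plus strand. Col1a2 spans chr6:4504814-4541544, Col5a1 chr2:27886425-28039514 and Col11a1 chr3:114030540-114220718, all on the plus strand. Col5a3 spans chr9:20770050-20815067 on the minus strand. Col3a1 (chr1:45311538-45349706, plus strand) and Col5a2 (chr1:45374321-45503282, minus strand) are neighbours that point towards each other, 24614 bases apart, with 0 annotated genes between them. Among genes counted in the files, 2 overlap a fibrillar collagen gene, both antisense to Col5a1. One, 2810430I11Rik, had 170 UMIs in Fbn1 C1039G/+ and 127 UMIs in WT interstitial cells, against 40857 and 33436 UMIs of Col5a1, and the other, Gm13372, had 1 and 3 UMIs. A UMI marks 1 captured transcript.

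RefSeq promoter windows (GRCm38.p6, 250 bases before to 50 after the annotated start) were matched for 5 of the 7 genes, namely Col1a2, Col3a1, Col5a1, Col5a3 and Col11a1. The windows of Col1a2, Col5a1 and Col3a1 are shown because Col1a2 and Col5a1 moved together across the interstitial clusters described later, and Col3a1 did so less closely. Capitals mark matches to the CCAAT box (letters CCAAT), to a TATA-box core with the letters TATAA, and to the GC box with the letters GGGCGG, on either strand (each motif was searched on both strands, and none of these matches overlaps a match of another motif).
Col1a2, chr6:4505368-4505667, plus strand: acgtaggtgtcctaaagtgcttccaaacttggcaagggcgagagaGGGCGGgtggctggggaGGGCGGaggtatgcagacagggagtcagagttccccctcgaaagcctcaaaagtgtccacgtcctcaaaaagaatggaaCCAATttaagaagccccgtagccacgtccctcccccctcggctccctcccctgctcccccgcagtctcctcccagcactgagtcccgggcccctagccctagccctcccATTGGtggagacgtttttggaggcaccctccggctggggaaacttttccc
Col5a1, chr2:27886175-27886474, plus strand: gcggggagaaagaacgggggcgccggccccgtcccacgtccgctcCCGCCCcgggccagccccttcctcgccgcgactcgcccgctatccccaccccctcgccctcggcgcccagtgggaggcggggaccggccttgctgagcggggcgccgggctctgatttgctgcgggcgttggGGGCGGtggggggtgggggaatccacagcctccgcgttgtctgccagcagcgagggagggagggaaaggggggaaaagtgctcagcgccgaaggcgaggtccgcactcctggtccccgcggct
Col3a1, chr1:45311288-45311587, plus strand: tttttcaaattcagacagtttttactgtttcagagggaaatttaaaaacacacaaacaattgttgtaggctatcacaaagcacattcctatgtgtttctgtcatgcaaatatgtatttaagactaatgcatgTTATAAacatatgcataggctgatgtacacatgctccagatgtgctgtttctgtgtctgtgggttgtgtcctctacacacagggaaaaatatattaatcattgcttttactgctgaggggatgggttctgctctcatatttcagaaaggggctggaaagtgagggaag
The Col1a2 window held CCAAT once on each strand and GGGCGG at 2 places. Its opposite-strand CCAAT match began at base 251 of the window, where the annotated start lies. This window lies wholly inside the GENCODE span of Col1a2 given above, so the RefSeq and GENCODE starts of the gene differ. The Col5a1 window held GGGCGG once on each strand and no CCAAT. The Col3a1 window held neither, and had TATAA on both strands at overlapping positions. Of the 32851 windows in the table, 37.4% held CCAAT, 24.9% held TATAA and 35.7% held GGGCGG. GC content was 61.0% in the Col1a2 window, 75% in the Col5a1 window and 37.7% in the Col3a1 window, against a median of 52.7% over the table. The numbers of CpG sites were 13 for Col1a2, 34 for Col5a1 and 0 for Col3a1. A match to these letters describes the sequence only.

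The Fbn1 C1039G/+ library held 103663375 UMIs in 9744 barcodes and the WT library 100969482 UMIs in 9509 barcodes, of which 9540 and 9395 were kept after removing those under 1000 UMIs or with over 20% of UMIs from mitochondrial genes. Interstitial cells, called where Dcn, Lum and Bgn made up at least 0.5% of UMIs, numbered 7965 in Fbn1 C1039G/+ (83.5%) and 7756 in WT valves (82.6%), with medians of 10068 and 10065 UMIs. The other classes held 875 Fbn1 C1039G/+ and 786 WT macrophages, 202 and 173 endothelial cells, 75 and 115 melanocytes, 63 and 130 T cells, and 24 and 32 mural cells. Fibroblast markers outside the rule (Pdgfra, Pcolce, Mfap5, Fbln1 and Tcf21, 5 of 5 detected) summed to 2295 CPM (UMIs of a gene divided by all UMIs of the class and given per 1000000 UMIs) in Fbn1 C1039G/+ and 2557 CPM in WT interstitial cells, against 46.8 and 75.9 CPM in macrophages. Macrophage markers outside the rule (Csf1r, Lyz2, Adgre1, Cd68 and Mrc1) summed to 200 CPM in Fbn1 C1039G/+ and 296 CPM in WT interstitial barcodes, and endothelial markers outside the rule (Kdr, Tie1, Vwf, Egfl7 and Npr3) to 97.1 and 57.8 CPM, with 0 of either list undetected. The libraries shared 17 barcode sequences.

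Interstitial cells held fibrillar collagen transcripts in tiers, and the order of the 7 genes was the same in both libraries. The type I and III chains formed the top tier, the type V chains Col5a2 and Col5a1 lay below them, and Col11a1 and Col5a3 were the lowest. CPM was not divided by transcript length, since a 3′ tag counts each transcript once, and capture may still differ between genes. Col1a2 stood at 5198 CPM in Fbn1 C1039G/+ and 4507 CPM in WT interstitial cells, rank 14 and rank 17 among all genes by level. Col3a1 stood at 4450 and 3628 CPM, rank 18 and rank 23. Col1a1 stood at 4187 and 3407 CPM, rank 20 and rank 25.

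The minor chains were less abundant. Col5a2 stood at 974 CPM in Fbn1 C1039G/+ and 793 CPM in WT interstitial cells, and Col5a1, the chain that most type V collagen molecules carry, at 461 and 393 CPM. Col11a1 stood at 62.2 CPM in Fbn1 C1039G/+ and 59.5 CPM in WT interstitial cells. Col5a3, which encodes a less widespread type V chain, stood at 41.8 and 32.3 CPM. Counting intervals of neighbours in this order did not overlap in either library. Of all UMIs of the 7 genes, the type I and III chains made up 27.2% (Col1a1), 33.8% (Col1a2) and 28.9% (Col3a1) in Fbn1 C1039G/+ cells, and 26.6%, 35.2% and 28.3% in WT cells.

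Of the other fibrillar collagen genes, Col11a2, which encodes another type XI chain, was at a level near that of Col11a1, with 80.2 CPM in Fbn1 C1039G/+ and 82.7 CPM in WT interstitial cells. Col27a1 stood at 26.6 and 24.2 CPM. Col2a1, the type II chain of cartilage, stood at 0.609 CPM (54 UMIs) in Fbn1 C1039G/+ and 0.540 CPM (46 UMIs) in WT cells, and Col24a1 at 0.417 CPM (37 UMIs) and 0.164 CPM (14 UMIs). Type XI chains were thus counted in a class that held hardly any type II transcript.

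**Figure D1:**
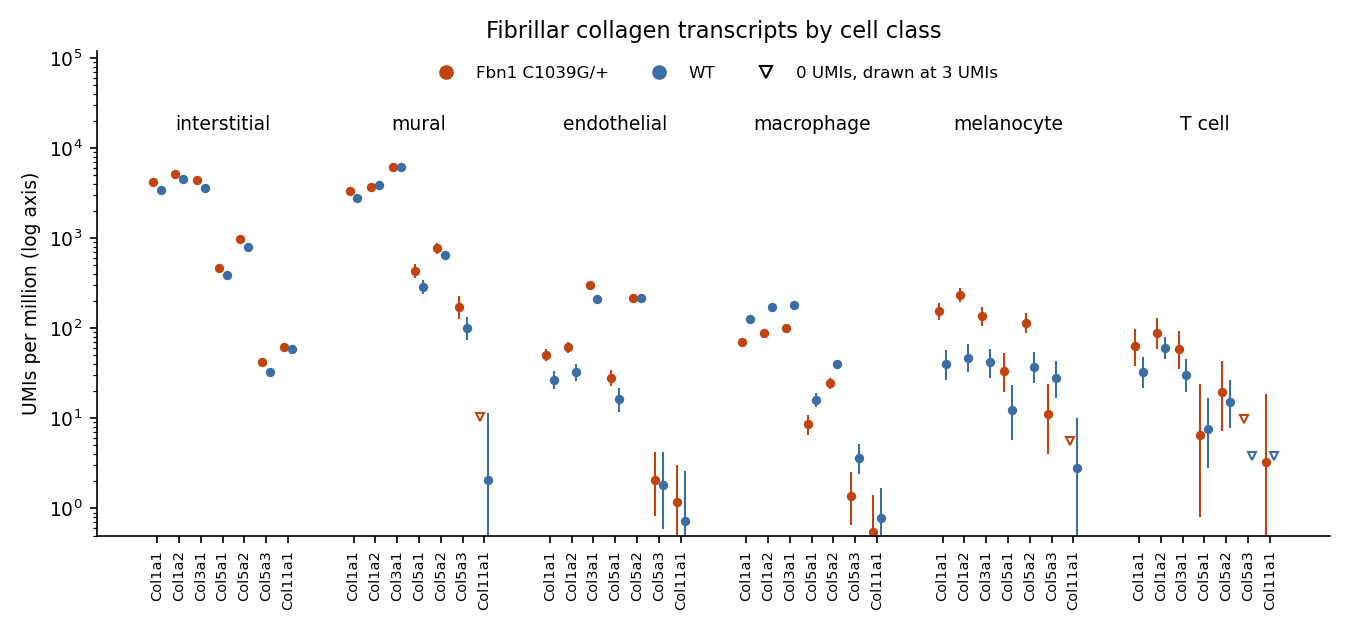
Level of each fibrillar collagen gene (CPM, log axis) in 6 cell classes of the Fbn1 C1039G/+ and WT libraries, with exact Poisson intervals of 95%; open triangles mark genes with 0 UMIs, drawn at the level of 3 UMIs. Interstitial and mural cells lie highest, and in endothelial cells Col3a1 (300 and 213 CPM) and Col5a2 (214 and 218 CPM) stand above Col1a1 (50.8 and 26.7 CPM).

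Mural cells, which surround small vessels and were called from Rgs5, Kcnj8 and Abcc9, held about as much fibrillar collagen transcript as interstitial cells but in other proportions. Col3a1 stood at 6135 CPM in the 24 Fbn1 C1039G/+ and 6144 CPM in the 32 WT mural cells, and the level in interstitial cells was 0.725 and 0.590 times that. Col5a3 stood at 171 CPM in Fbn1 C1039G/+ mural cells (127 to 225) and 99.8 CPM in WT mural cells (73.6 to 132), the highest Col5a3 level of the 6 named classes. Col11a1 had 0 UMIs in Fbn1 C1039G/+ and 1 UMI in WT mural cells, and its level in interstitial cells was at least 6.06-fold higher in Fbn1 C1039G/+ valves, taking 3 UMIs as the floor for the mural class. The WT ratio was 28.6 (5.13 to 1130). The mural class holds only barcodes with Dcn, Lum and Bgn under 0.5% of UMIs, and those above this cut were called interstitial. Dcn stood at 1162 CPM in Fbn1 C1039G/+ and 1233 CPM in WT mural cells and Bgn at 2126 and 2036 CPM. The effect of the cut on the mural levels was not tested.

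Cells of the endothelial class carried Col3a1 and Col5a2 without a matching level of type I chains. Col3a1 stood at 300 CPM in Fbn1 C1039G/+ and 213 CPM in WT endothelial cells, and Col5a2 at 214 and 218 CPM. Col1a1 stood at 50.8 and 26.7 CPM and Col1a2 at 61.4 and 32.5 CPM. There were 4.22 Col5a2 UMIs per Col1a1 UMI in Fbn1 C1039G/+ endothelial cells (3.56 to 5.01) and 8.16 in WT endothelial cells (6.40 to 10.5), against 0.233 in interstitial cells of both libraries. Col3a1 per Col1a1 was 5.91 and 7.97 in endothelial cells, against 1.06 in interstitial cells of both libraries. Dcn, which helped to define the interstitial class, was present in endothelial cells at 1561 CPM in Fbn1 C1039G/+ and 1397 CPM in WT valves, and its part in these levels was not tested. The endothelial class holds only barcodes with Dcn, Lum and Bgn under 0.5% of UMIs. Above that cut, cluster 14 of the interstitial cells (161 Fbn1 C1039G/+ and 113 WT cells, described later) carried endothelial markers. It had 0.426 and 0.360 Col5a2 UMIs per Col1a1 UMI, and Col3a1 per Col1a1 of 2.34 and 1.61. The effect of the cut was not tested.

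In macrophages the type I chains kept the proportion seen in interstitial cells. Col1a1 per Col1a2 was 0.787 in Fbn1 C1039G/+ (0.6998 to 0.886) and 0.752 in WT macrophages (0.692 to 0.817), against 0.806 and 0.756 in interstitial cells. The 7 genes summed to 297 CPM in Fbn1 C1039G/+ and 541 CPM in WT macrophages, where the 5 barcodes with most of these UMIs held 32.5% and 50.1% of them. The median macrophage held 1 such UMI in each library. T cells, which are not known to make fibrillar collagen, held 241 CPM of the 7 genes in Fbn1 C1039G/+ and 147 CPM in WT valves, and the part of free RNA in such low levels was not tested.

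Col5a3 and Col11a1 transcripts were counted in a minority of interstitial cells. After each cell was thinned to 3000 UMIs (310 Fbn1 C1039G/+ and 51 WT interstitial cells were shallower and left out), Col5a3 was detected in 10.1% of Fbn1 C1039G/+ and 8.03% of WT interstitial cells, against 0.366% and 0.132% of macrophages. Col11a1 was detected in 12.1% of Fbn1 C1039G/+ and 11.5% of WT interstitial cells, against 0.244% and 0.264% of macrophages. Without thinning the shares of interstitial cells were 28.3% and 23.4% for Col5a3 and 24.5% and 23.2% for Col11a1, and those of macrophages 0.686% and 1.91% for Col5a3 and 0.457% and 0.509% for Col11a1, at median depths of 7399 and 8293 UMIs in macrophages. Col1a1, Col1a2 and Col3a1 were each detected in over 97% of thinned interstitial cells in both libraries.

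In interstitial cells all 7 genes were higher in the Fbn1 C1039G/+ library than in the WT library, by small factors, except that Col11a1 was lower among female cells. The sum was 15374 CPM in Fbn1 C1039G/+ and 12820 CPM in WT interstitial cells, a ratio of 1.199 (1.196 to 1.202). Col5a3 had the highest ratio, 1.29 (1.23 to 1.36), and Col11a1 the lowest, 1.05 (1.01 to 1.09). Col1a1, Col3a1 and Col5a2 each had a ratio of 1.23. Col5a1 had a ratio of 1.17 (1.16 to 1.19) and Col1a2 of 1.15 (1.15 to 1.16).

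Of the 6592 measured genes, 62.3% had a ratio above 1. Measured genes reached 20 CPM in 1 library or both and had 50 or more UMIs in all. At 1.5-fold higher 0 of the 7 genes were past the fold with an interval above 1, against 1.06% of measured genes, and at 1.5-fold lower 0 of 7, against 1.49%. At 1.2-fold higher 4 of 7 were past it (Col1a1, Col3a1, Col5a2 and Col5a3), against 5.93% of measured genes, and at 1.2-fold lower 0 of 7, against 4.93%. The median log2 ratio was 0.29 over the 7 genes and 0.04 over measured genes. Col5a3, Col1a1, Col5a2 and Col3a1 had higher ratios than 95.1% to 97.0% of measured genes, Col5a1 than 92.2%, Col1a2 than 90.4% and Col11a1 than 59.0%. When the libraries were scaled by the median ratio of measured genes, 1 of 7 was past 1.2-fold and the summed ratio was 1.17. With this scaling 10.7% of measured genes were past 1.2-fold in either direction, against 10.9% without it.

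Both pools held female and male cells, which were told apart by Xist and Y-linked UMIs. The number of mice of each sex is not given in the sources used here. The summed ratio was 1.17 (1.17 to 1.18) between female interstitial cells of the libraries (3840 Fbn1 C1039G/+ and 3596 WT cells) and 1.25 (1.24 to 1.25) between male cells (2958 and 3194 cells). Male cells were higher than female cells within each library, with 17763 against 13526 CPM in Fbn1 C1039G/+ and 14257 against 11530 CPM in WT valves. Col3a1 had a ratio of 1.14 in female and 1.32 in male cells.

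The near-equal pooled level of Col11a1 was made of opposite differences in the female and male cells of these pools. In female cells Col11a1 stood at 41.2 CPM in Fbn1 C1039G/+ and 57.0 CPM in WT valves, a ratio of 0.723 (0.677 to 0.771). In male cells it stood at 88.8 CPM in Fbn1 C1039G/+ and 63.8 CPM in WT valves, a ratio of 1.39 (1.32 to 1.47). The share of cells in the cluster with most Col11a1 (cluster 11, described later) moved the same way, with 1.198% of female cells in Fbn1 C1039G/+ and 2.25% in WT valves, and 3.89% and 2.04% of male cells. Col5a3 had the reverse order of ratios, 1.47 (1.36 to 1.58) in female and 1.13 (1.05 to 1.22) in male cells.

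**Figure D2:**
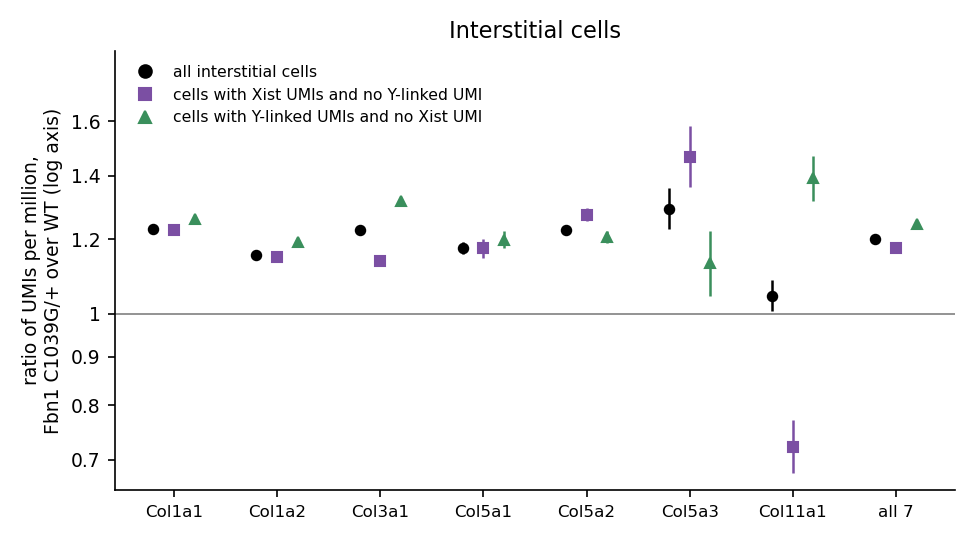
Ratio of the level in Fbn1 C1039G/+ over WT interstitial cells (log axis) for each gene and for the sum of all 7, over all interstitial cells (circles), female cells (squares, Xist UMIs and no Y-linked UMI) and male cells (triangles, Y-linked UMIs and no Xist UMI), with 95% counting intervals. All points lie above 1 except Col11a1 in female cells at 0.723.

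The proportion of the type I chains differed slightly between the libraries. There were 0.806 Col1a1 UMIs per Col1a2 UMI in Fbn1 C1039G/+ (0.802 to 0.809) and 0.756 in WT interstitial cells (0.752 to 0.760), a ratio of ratios of 1.07 (1.06 to 1.07). Chain ratios do not depend on the scaling of the libraries. When barcodes of both libraries were split by depth into 4 bins, Col1a1 per Col1a2 was higher in shallow barcodes of each library. It was 0.885 in Fbn1 C1039G/+ and 0.836 in WT barcodes of the shallowest bin, 0.814 and 0.760 in the next, 0.804 and 0.740 in the third, and 0.786 and 0.751 in the deepest. The Fbn1 C1039G/+ value was the higher one in each bin. With cells thinned to 3000 UMIs the ratio of ratios was again 1.07. That setting left out 310 Fbn1 C1039G/+ and 51 WT cells that were shallower. It also keeps the expected chain proportion of each cell, so it cannot show whether the difference depends on depth.

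The proportion of type III to type I was within counting error between the libraries in the pooled cells, but not within the sexes. Col3a1 per Col1a1 was 1.06 in both libraries, with a ratio of ratios of 0.998 (0.991 to 1.00). It was 1.04 in Fbn1 C1039G/+ and 1.12 in WT female cells, a ratio of ratios of 0.928 (0.918 to 0.938), and 1.07 and 1.02 in male cells, a ratio of ratios of 1.04 (1.03 to 1.05). The direction also changed with depth. In the shallowest of the 4 depth bins Col3a1 per Col1a1 was 1.11 in Fbn1 C1039G/+ and 1.32 in WT barcodes. It was 1.10 and 1.11 in the next, 1.04 and 1.07 in the third, and 1.05 and 0.991 in the deepest. Type V and XI chains together numbered 0.111 per type I or III chain UMI in both libraries (ratio of ratios 1.00, 0.996 to 1.01). Female cells alone gave 1.05 for this last measure and male cells alone 0.969, and with the clusters given equal shares in both libraries it was 0.949, all 3 with intervals that exclude 1.

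Among the minor chains Col5a1 per Col5a2 was 0.473 in Fbn1 C1039G/+ and 0.495 in WT interstitial cells, a ratio of ratios of 0.955 (0.939 to 0.972). It was 0.995 (0.978 to 1.01) with equal cluster shares. Col5a3 per Col5a1 was 0.0907 and 0.0822, a ratio of ratios of 1.10 (1.05 to 1.16). This was 1.25 (1.16 to 1.35) in female cells and 0.944 (0.870 to 1.02) in male cells, and 11 of 13 clusters had intervals that hold 1. Col11a1 per Col5a1 was 0.135 and 0.151, a ratio of ratios of 0.891 (0.856 to 0.928). The direction turned with sex, at 0.616 (0.576 to 0.660) in female cells and 1.16 (1.10 to 1.23) in male cells. It turned with depth too. Col11a1 per Col5a1 was 0.120 in Fbn1 C1039G/+ and 0.0953 in WT barcodes of the shallowest bin, and 0.137 and 0.120 in the next. It was 0.138 and 0.153 in the third bin, and 0.136 and 0.178 in the deepest. Of 13 clusters 4 had intervals below 1, 1 above 1 and 8 that hold 1.

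Interstitial cells differed far more among themselves than the libraries did. They were clustered on genes other than collagens, so the collagen values played no part in forming the clusters. In all, 26 clusters were found, and 8 of them (555 Fbn1 C1039G/+ and 420 WT cells) carried markers of another cell type at 10 times the level of the other clusters or more. The description keeps to the 15 clusters with at least 100 cells and no such markers. Clusters are given by number and by their 3 leading genes, and no cell type name is given to them.

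Cluster 11 (Clec3a, Chad and Spp1; 180 Fbn1 C1039G/+ and 170 WT cells) held the most type I transcript. Col1a1 stood at 13659 CPM in its Fbn1 C1039G/+ cells and 11261 CPM in its WT cells, against 1965 and 1383 CPM in cluster 5 (Gata3, Nrgn and Mal; 319 and 937 cells), the lowest. Col11a1 stood at 540 CPM in Fbn1 C1039G/+ and 453 CPM in WT cells of cluster 11, against 62.2 and 59.5 CPM in all interstitial cells. Cluster 11 also had the highest Col5a1 (992 and 914 CPM) and Col5a2 (1974 and 1846 CPM). Its Col3a1 did not follow, at 5679 and 4626 CPM, and its Col3a1 per Col1a1 of 0.416 and 0.411 was the lowest of the 15 clusters.

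Cluster 9 (Cpz, Itih4 and Msc; 168 Fbn1 C1039G/+ and 392 WT cells) lay at the other end. Col3a1 reached 10183 CPM in its Fbn1 C1039G/+ cells and 6743 CPM in its WT cells, the highest of the 15 clusters. Col3a1 per Col1a1 was 2.35 in Fbn1 C1039G/+ and 2.27 in WT cells. Col11a1 stood at 7.98 and 5.98 CPM there. Col5a1 per Col5a2 was 0.832 and 0.917, the highest of the 15 clusters, and type V and XI chains per type I and III chain the lowest, at 0.0585 and 0.0564. Cluster 12 (Ndufa4l2, Notch3 and Gfra2) shared the high Col3a1 per Col1a1, 2.33 in Fbn1 C1039G/+ and 2.15 in WT cells. Col5a3 stood at 75.8 CPM in its Fbn1 C1039G/+ and 69.0 CPM in its WT cells, close to the 76.1 and 65.1 CPM of cluster 3 (Mmp3, Fgl2 and Clec3b).

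**Figure D3:**
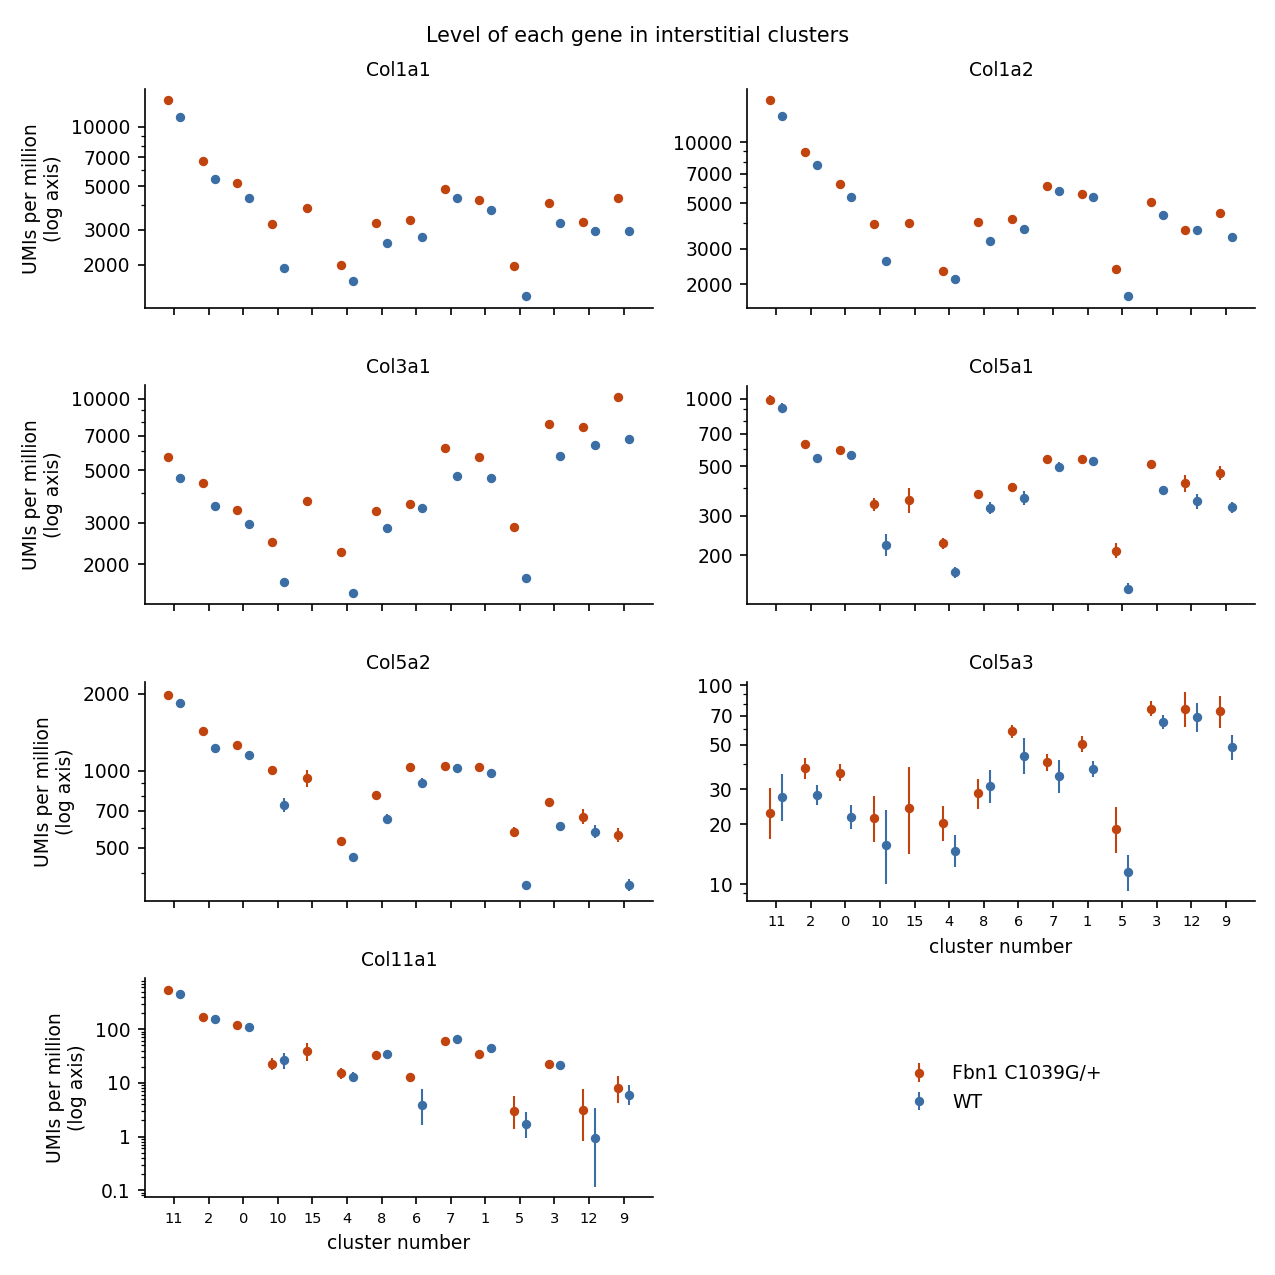
Level of each gene (CPM, log axis) in interstitial clusters with at least 100 cells of a library, for Fbn1 C1039G/+ and WT cells, with exact Poisson intervals of 95%; clusters run along the axis by rising Col3a1 per Col1a1. Cluster 11 at the left is highest for Col1a1, Col1a2, Col5a1, Col5a2 and Col11a1, and cluster 9 at the right is highest for Col3a1.

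Over the 15 clusters, with libraries pooled, the chain ratios had very different ranges. Col1a1 per Col1a2 was nearly fixed, from 0.725 in cluster 2 to 0.930 in cluster 15, a span of 1.28-fold. Cluster 15 held shallow barcodes (median 2740 UMIs, 196 Fbn1 C1039G/+ and 22 WT cells). Col5a1 per Col5a2 ran from 0.326 in cluster 10 to 0.883 in cluster 9, a span of 2.71-fold. Col3a1 per Col1a1 ran from 0.413 in cluster 11 to 2.30 in cluster 9, a span of 5.56-fold.

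The ratios of Col5a3 and of Col11a1 to Col5a1 varied more, with their lowest and highest values in the same clusters but reversed. By level Col5a3 spanned 5.32-fold over the clusters. This was less than Col1a1 (8.09-fold), Col1a2 (7.72-fold) and Col5a1 (5.95-fold), and more than Col5a2 (4.57-fold) and Col3a1 (4.30-fold). Col5a3 per Col5a1 ran from 0.0265 in cluster 11 to 0.191 in cluster 12. Col11a1 per Col5a1 ran from 0.00463 in cluster 12 to 0.521 in cluster 11. The low end rests on 4 Col11a1 UMIs in Fbn1 C1039G/+ and 2 in WT cells, so the size of this span is imprecise. Type V and XI chains per type I and III chain ran from 0.0572 in cluster 9 to 0.148 in cluster 10. The coarser resolution of 0.5 gave 9 clusters of this kind. The spans were then 1.31-fold for Col1a1 per Col1a2, 2.01-fold for Col5a1 per Col5a2 and 3.41-fold for Col3a1 per Col1a1. They were 3.88-fold for Col5a3 per Col5a1 and 15.4-fold for Col11a1 per Col5a1.

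**Figure D4:**
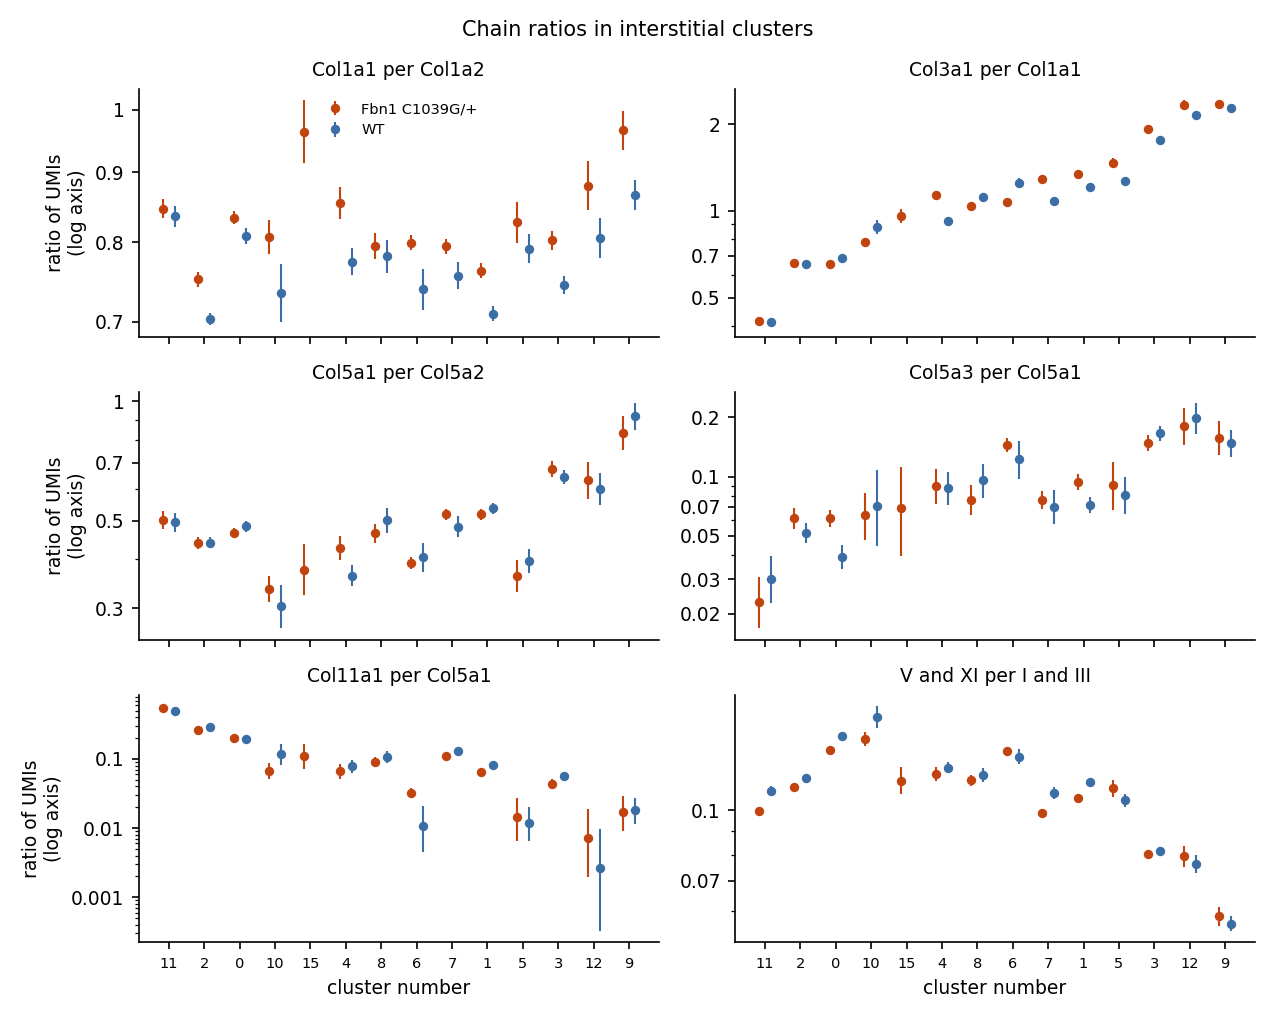
Chain ratios (UMIs of one gene or group per UMI of another, log axes) in interstitial clusters with at least 100 cells of a library, for Fbn1 C1039G/+ and WT cells, with 95% counting intervals and the clusters ordered by Col3a1 per Col1a1. Col1a1 per Col1a2 stays between 0.703 and 0.966 in these points, while Col11a1 per Col5a1 is 0.545 and 0.496 in cluster 11 and 0.0171 and 0.0182 in cluster 9.

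Across the 27 cluster-by-library points with at least 100 cells, the log2 levels of Col1a1 and Col1a2 had a Pearson r of 0.99, Col1a2 and Col5a1 of 0.96 and Col5a2 and Col11a1 of 0.84. Col3a1 was closest to Col5a3 (0.86) and had an r of 0.50 with Col1a2 and 0.16 with its chromosomal neighbour Col5a2. Col5a3 and Col11a1 had an r of -0.18. These values describe points that share 2 libraries and carry no p. Over single cells thinned to equal depth, Col1a1 and Col1a2 had the highest r of any pair, 0.786 in Fbn1 C1039G/+ and 0.754 in WT cells, and Col1a1 and Col3a1 had 0.521 and 0.517.

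Within clusters the Fbn1 C1039G/+ level was the higher one nearly throughout. In the 13 clusters with at least 100 cells in each library, the summed ratio ran from 1.12 in cluster 1 to 1.53 in cluster 10, with a median of 1.201, and all 13 intervals lay above 1. The ratio's interval lay above 1 in 13 clusters for Col1a1 and Col3a1, in 12 for Col1a2, Col5a1 and Col5a2, and in 8 for Col5a3. For Col11a1 it lay above 1 in 3 clusters and below 1 in 1. Col1a1 per Col1a2 had an interval above 1 in 11 of 13 clusters and below 1 in 0. Col3a1 per Col1a1 had intervals above 1 in 6 clusters and below 1 in 4, so its pooled ratio near 1 held differences in both directions.

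The libraries differed in how their cells were spread over the clusters. Cluster 6 (Ereg, Bdnf and Fst) held 971 Fbn1 C1039G/+ and 186 WT cells, and cluster 5 held 319 and 937. The 7 genes summed lowest in cluster 5 among WT cells (5400 CPM, with 5955 CPM in cluster 4) and lowest in cluster 4 among Fbn1 C1039G/+ cells (7397 CPM, with 8039 CPM in cluster 5). With the shares of clusters set equal in both libraries the summed ratio was 1.202. Without the 8 clusters that carried markers of another type it was 1.21, and without interstitial barcodes that also passed the macrophage or endothelial threshold it was 1.21.

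In single interstitial cells the spread of the chain shares was larger than counting error, by an amount that depended on the pair. The share of Col1a1 among Col1a1 and Col1a2 UMIs had a median of 44.7% over 7310 Fbn1 C1039G/+ cells and 43.1% over 6898 WT cells with at least 20 such UMIs. Its SD was 8.07 and 8.51 percentage points, of which counting alone accounts for 6.15 and 6.58 points and leaves 5.23 and 5.39. Most of this remainder lay within clusters, at 4.98 points in Fbn1 C1039G/+ and 5.22 points in WT cells.

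The share of Col3a1 among the type I and III UMIs varied more than the other 3 shares examined. Its median was 31.2% in Fbn1 C1039G/+ and 30.9% in WT cells, with 5th and 95th percentiles of 13.2% and 57.2% in Fbn1 C1039G/+ and of 13.5% and 57.9% in WT cells. The SD beyond counting was 12.8 points in each library, and 9.93 and 9.63 points within clusters. In 17 Fbn1 C1039G/+ and 11 WT interstitial barcodes Col3a1 made up at least 90% of these UMIs. All 28 also passed the endothelial threshold, and 14 and 10 of them lay in cluster 14 (Emcn, Igf2 and Cd300lg), one of the clusters with endothelial markers.

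**Figure D5:**
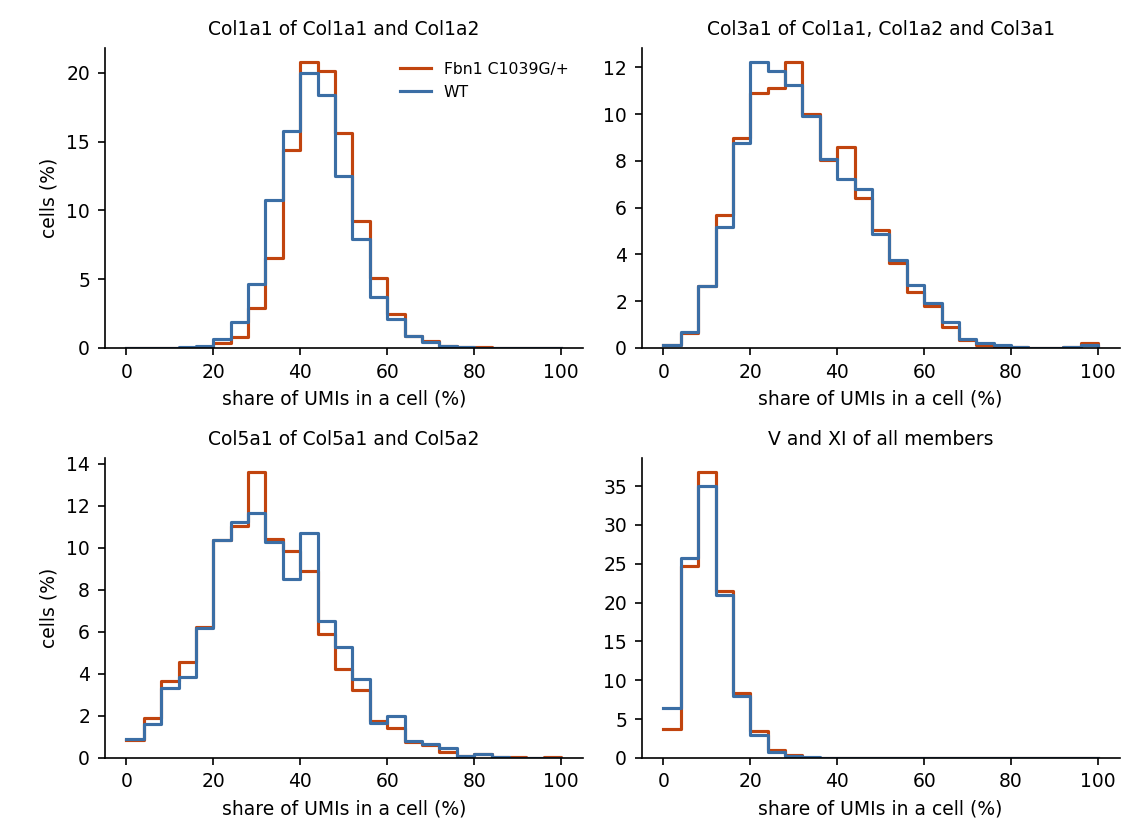
Share of cells (%) by the share of UMIs of a gene or group in single interstitial cells of the Fbn1 C1039G/+ and WT libraries, with at least 20 UMIs of the genes named (10 for Col5a1 and Col5a2). The Col1a1 share is narrow, with medians of 44.7% and 43.1%, and the Col3a1 share is broad, with medians of 31.2% and 30.9%.

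Col5a1 made up a median of 31.3% of Col5a1 and Col5a2 UMIs in 5084 Fbn1 C1039G/+ cells and 32.5% in 4004 WT cells with at least 10 of them, with an SD beyond counting of 8.20 and 8.04 points. Type V and XI chains made up a median of 10.2% and 9.84% of the UMIs of the 7 genes, with an SD beyond counting of 3.63 and 3.42 points. In cells thinned to 3000 UMIs the coefficient of variation beyond counting of Col11a1 was 2.22 in Fbn1 C1039G/+ and 2.11 in WT cells, against 0.751 and 0.784 for Col1a1 and a median of 0.355 and 0.352 over genes with a mean of at least 0.1 UMI.

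In the endothelial class the type I chains, Col3a1 and Col5a1 were also higher in the Fbn1 C1039G/+ library, and Col5a2 was not. Col1a1 had a ratio of 1.902 (1.44 to 2.53), Col1a2 of 1.89 (1.47 to 2.45) and Col3a1 of 1.41 (1.27 to 1.56). Col5a1 had a ratio of 1.73 (1.1995 to 2.52) on 95 Fbn1 C1039G/+ and 45 WT UMIs, while Col5a2 had 0.982 (0.881 to 1.10). Col5a1 per Col5a2 was 0.131 in Fbn1 C1039G/+ and 0.0745 in WT endothelial cells, a ratio of ratios of 1.76 (1.21 to 2.55). Genes of the interstitial rule were higher there too, Bgn with a ratio of 1.44 (1.28 to 1.63) at 220 CPM in Fbn1 C1039G/+ and 152 CPM in WT cells and Dcn with 1.12 (1.07 to 1.16), and the part of interstitial RNA was not tested. Of 5 measured genes 3 were past 1.5-fold higher, against 4.02% of measured genes in this class, and 0 past 1.5-fold lower, against 4.48%. At 1.2-fold 4 of 5 were past it higher, against 9.74%, and 0 lower, against 11.1%. Cluster 14, which carried endothelial markers but was called interstitial (161 Fbn1 C1039G/+ and 113 WT cells), had another pattern. Its ratio was 1.04 (0.955 to 1.13) for Col1a1 and 0.961 (0.894 to 1.03) for Col1a2. For Col3a1 it was 1.52 (1.42 to 1.62) and for Col5a2 1.23 (1.07 to 1.41). In macrophages the summed level was lower in the Fbn1 C1039G/+ library, with a ratio of 0.548 (0.520 to 0.578), while the share of cells with any of these UMIs was not. Thinned to 3000 UMIs, 41.8% of Fbn1 C1039G/+ macrophages (38.4% to 45.3%) and 34.9% of WT macrophages (31.5% to 38.4%) had a UMI of the 7 genes, and without thinning 71.7% and 69.0% had one. Of 4 measured genes 4 were past 1.5-fold lower there, against 3.68%, and 0 past 1.5-fold higher, against 1.39%. At 1.2-fold 4 of 4 were again lower, against 10.6%, and 0 higher, against 11.6%. The macrophage ratio was 0.732 (0.684 to 0.783) without the 5 barcodes with most of these UMIs in each library, and 0.608 without barcodes that scored highest as doublets. Dcn in macrophages was at 219 CPM in Fbn1 C1039G/+ and 273 CPM in WT cells, a ratio of 0.801, and the part of interstitial RNA was not tested.

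Genes that fold and export procollagen had a median ratio nearer to 1 than the collagen genes in interstitial cells. Of 21 measured genes for hydroxylation, folding and export 0 were past 1.5-fold in either direction, 17 had a ratio above 1, and the median log2 ratio was 0.09. Over all measured genes 1.06% were past 1.5-fold higher and 1.49% lower, and 62.3% had a ratio above 1. Serpinh1, the collagen chaperone of the endoplasmic reticulum, stood at 790 CPM in Fbn1 C1039G/+ and 614 CPM in WT cells, a ratio of 1.29. Ppib, a prolyl isomerase, stood at 972 and 958 CPM. Colgalt2, a collagen galactosyltransferase, had the lowest ratio of the list, 0.722, at 16.5 and 22.9 CPM.

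Removal of the propeptides, which lets fibrils form, depends on Bmp1 and Adamts2 with Pcolce as an enhancer. Of the 8 genes of this list 4 were measured, and their median log2 ratio was 0.23. Past 1.5-fold were 0 of 4, against 1.06% of all measured genes higher and 1.49% lower. Pcolce stood at 509 CPM in Fbn1 C1039G/+ and 476 CPM in WT cells, Adamts2 at 468 and 412 CPM, and Bmp1 at 149 and 120 CPM, a ratio of 1.25. Of 4 measured lysyl oxidases, which crosslink the chains, 0 were past 1.5-fold, against the same 1.06% higher and 1.49% lower. Loxl2 stood at 390 CPM in Fbn1 C1039G/+ and 306 CPM in WT cells, a ratio of 1.28, while Loxl1 stood at 348 and 387 CPM, a ratio of 0.899.

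Of proteins that bind the fibril surface, Dpt stood at 2544 CPM in Fbn1 C1039G/+ and 2612 CPM in WT cells and Prelp at 1650 and 1609 CPM. Fn1, which encodes fibronectin, stood at 264 CPM in Fbn1 C1039G/+ and 100.3 CPM in WT cells (ratio 2.64, 2.57 to 2.70). It was the only 1 of 11 measured genes of this list past 1.5-fold higher, against 1.06% of measured genes. Past 1.5-fold lower were 0 of 11, against 1.49%. Ogn, a small leucine-rich proteoglycan, stood at 202 and 260 CPM, a ratio of 0.779. Of 6 measured collagen receptors 0 were past 1.5-fold, against 1.06% of measured genes higher and 1.49% lower. Their median log2 ratio was 0.15. Itgb1, the shared integrin subunit, stood at 497 and 431 CPM and Mrc2, an endocytic receptor, at 105 and 99.1 CPM. Ddr1 had a ratio of 1.27 and Itga10 of 0.775.

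Among genes of collagen cleavage 1 of 7 measured was past 1.5-fold higher, against 1.06% of all measured genes, and 1 past 1.5-fold lower, against 1.49%. Timp1, a metalloproteinase inhibitor, stood at 382 CPM in Fbn1 C1039G/+ and 222 CPM in WT cells, a ratio of 1.72 (1.69 to 1.75). Fap, a fibroblast surface protease, was at 20.2 CPM in Fbn1 C1039G/+ and 41.0 CPM in WT cells (ratio 0.492, 0.465 to 0.521). Timp3 and Timp2 were the most abundant, at 2686 and 2162 CPM and at 1363 and 1196 CPM. Of 6 measured transcription factors known to act on collagen genes, 1 was past 1.5-fold lower, against 1.49% of all measured genes. This was Egr1, an immediate early gene, at 486 and 813 CPM, a ratio of 0.598. Scx, which drives Col1a1 in tendon cells, had the highest ratio of that list, 1.4004, at 277 CPM in Fbn1 C1039G/+ and 198 CPM in WT cells, and Sox9 stood at 366 and 315 CPM.

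Over the 27 cluster-by-library points, the genes whose levels followed the fibrillar collagens most closely among 6585 genes differed between the chains. The sum of Col1a1, Col1a2 and Col3a1 was closest to Rrbp1, a ribosome-binding protein of the endoplasmic reticulum (r = 0.96), followed by Sfrp2, Hdlbp, Sec31a and Sparc (0.94 to 0.95). The sum of Col5a1 and Col5a2 was closest to Loxl2 (0.96), Pam, Mfge8, Sparc and Pls3. Col5a3 was closest to Itga9 (0.93), Hspb2, B4galt2, Ntn1 and Cp. Col11a1 was closest to Col8a2 (0.97), Cilp2, Cd59a, Prelp and Rin2. Sparc, a collagen-binding matrix protein, was in both of the first lists and stood at 7828 CPM in Fbn1 C1039G/+ and 5603 CPM in WT interstitial cells.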

How the data were processed

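Single-cell 3′ libraries (10x Genomics Chromium, version 3.1) of mouse mitral valve cells were analysed, 1 per genotype. The authors deposited whole-number UMI counts for each gene in each barcode. They come from Cell Ranger and the mm10 genome, version 3.1.0 in the submitters' processing notes and 5.0.1 per the file headers. Whether free RNA was removed before is not given in the sources used here, and none was subtracted.

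UMIs were summed per class and library and divided by the class total (CPM). Levels have exact Poisson intervals, shares and chain ratios Clopper-Pearson intervals, ratios of levels exact conditional binomial intervals and ratios of ratios log-scale intervals, all 95% and for counting error only. A count of 0 was set to a floor of 3 UMIs per class and library. The interval and spread computations were tested on simulated data. Spread beyond counting is the square root of the variance less the binomial variance. Barcodes below the interstitial threshold were called macrophage (10 UMIs of C1qa, C1qb and C1qc), endothelial (5 UMIs of Pecam1, Cdh5 and Emcn), mural or melanocyte (5 UMIs of their markers) or T cell (3 UMIs), in that order. Interstitial cells were clustered by Leiden (leidenalg 0.10.2, resolution 1) on 30 principal components of 2000 variable genes, with 44 collagen genes left out. Doublets were kept, and left out in an alternative by Scrublet score (Scanpy 1.11.5) at 0.8% per 1000 barcodes (755 Fbn1 C1039G/+ and 730 WT barcodes). Female cells had Xist UMIs and no Y-linked UMI, and male cells the reverse.

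The collagen genes, the other gene lists, the markers and the thresholds were chosen with earlier results of these data known. From each list the text names genes past 1.5-fold, up to 2 of the highest level and those of the highest and lowest ratio. Genes most like a pattern are the 5 with the highest Pearson r of log2(CPM + 1).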

Additional observations from a re-analysis of the deposited data

Results flagged for a closer look

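The ratio of summed levels, Fbn1 C1039G/+ over WT, had opposite directions in macrophages and interstitial cells. In macrophages it was 0.551 for Col1a1, 0.526 for Col1a2, 0.557 for Col3a1, 0.535 for Col5a1, 0.613 for Col5a2, 0.382 for Col5a3 and 0.548 for all 7 genes summed. In interstitial cells these ratios lay between 1.15 and 1.29, and the sum at 1.199. The difference was not tested, since each genotype has 1 library. The 5 macrophage barcodes with most of these UMIs held 698 of 2150 UMIs in Fbn1 C1039G/+ and 2101 of 4195 UMIs in WT valves, and the summed macrophage ratio without them was 0.732. The share of macrophages with a UMI of the 7 genes ran the other way, at 41.8% in Fbn1 C1039G/+ and 34.9% in WT cells thinned to 3000 UMIs.

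Col11a1 had opposite directions in the male and female cells of these pools, with a ratio of 1.39 in male cells and 0.723 in female cells. Ratios of chain ratios did so too, with 1.04 in male and 0.928 in female cells for Col3a1 per Col1a1, 1.16 and 0.616 for Col11a1 per Col5a1, and 0.969 and 1.05 for type V and XI chains per type I and III chain. These differences were not tested either, because the mice of each sex share a library. Of the 3 pooled Fbn1 C1039G/+ mice, the females or the males were a single animal, so sex cannot be told apart from individual mice. Col11a1 was also lower in Fbn1 C1039G/+ cells of cluster 1 (Car3, Nr4a3 and Ccdc3), at 34.4 CPM against 43.9 CPM in WT cells, a ratio of 0.784 (0.682 to 0.901), while in clusters such as 11 it was higher (1.19, 1.09 to 1.30), again not tested. In cluster 1 the ratio also differed by sex, with 21.0 CPM in Fbn1 C1039G/+ and 44.5 CPM in WT female cells, and 50.8 and 39.9 CPM in male cells.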

How the results depend on the processing

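No paired analysis was possible because each genotype has 1 library. The count of genes past 1.5-fold was 0 of 7 under all 18 alternatives, where 1.48% to 7.04% of measured genes were past it in either direction. The summed ratio stayed above 1 in all 15 of its alternatives. It varied with barcode depth over the 4 depth bins. The summed level was 11968 CPM in Fbn1 C1039G/+ and 8689 CPM in WT interstitial cells of the shallowest bin. It was 14407 and 10708 CPM in the next, 17091 and 13972 CPM in the third, and 15961 and 14822 CPM in the deepest. The libraries thus lay closest in the deepest bin, and the cause was not tested. The summed ratio (1.199) was 1.17 in female cells and 1.25 in male cells, 1.17 with median ratio scaling and 1.18 without mitochondrial and ribosomal genes. It was 1.21 without barcodes that carry macrophage or endothelial UMIs, 1.21 with Dcn, Lum and Bgn at 1% or more, 1.196 at 0.25% or more and 1.24 with Lum alone at 0.1% or more. It was 1.23 with cells thinned to 3000 UMIs, 1.235 with each cell weighted equally and 1.21 without clusters with markers of another type, an alternative added after the data had been seen. Col1a1 per Col1a2 (ratio of ratios 1.07) was 1.06 in male cells and 1.08 with equal weights. Col5a1 per Col5a2 (0.955) was 0.921 in female cells, 0.993 in male cells and 0.995 with equal cluster shares. Type V and XI chains per type I and III chain (1.00) was 1.05 in female cells, 0.969 in male cells, 1.02 in thinned cells and 0.949 with equal cluster shares. The count of genes past 1.2-fold (4) was 1 with median ratio scaling. Of measured genes 10.9% were past 1.2-fold in either direction, and 10.7% with this scaling. The Col11a1 ratio (1.05) turned to 0.723 in female cells and kept its direction in the other 14 alternatives. By sex, also added after the data had been seen, Col5a3 per Col5a1 (1.10) turned to 0.944 and Col11a1 per Col5a1 (0.891) to 1.16, both in male cells. The causes were not tested. Leaving out macrophages with most collagen UMIs, or doublets, was also added after the data had been seen. Counts of 1 to 10 UMIs, as for Col11a1 outside interstitial cells and in cluster 12, give ratios with wide intervals.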
